A study of Arabidopsis thaliana with 6 samples.

Results

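The genes described here belong to the plastid isoprenoid, carotenoid and tocopherol pathways of Arabidopsis thaliana. These genes encode plastid enzymes but also other proteins, such as the chaperone OR and the cytosolic enzyme CCD1. They are 32 genes chosen by locus as members of these pathways, with earlier results of these data known, of 24439 in each deposited file, and all 32 were among the 20581 genes tested. The study sequenced total RNA of whole seedlings after 4 days of dark growth at 22 °C, which followed cold treatment of the seeds for 3 days at 4 °C and white light for 12 h. The 3 genotypes had 2 biological replicates each: pifq, whose genotype is labelled "pifq1 pifq3 piq4 pifq5 homozygote" and is a multiple mutant of phytochrome interacting factors (PIFs), f1f3, labelled "fypp1 fypp3 homozygote", and wild-type Col. All 6 libraries share the age, the light pulse and the dark growth. The FYPP genes encode catalytic subunits of PP6, a protein phosphatase, whereas PIFs are transcription factors that hold back light-type development in darkness. The mutant alleles and the pooling of seedlings are not given in the sources used here.

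Plastids build isoprenoids from pyruvate and glyceraldehyde phosphate through the methylerythritol phosphate (MEP) pathway, which yields isopentenyl diphosphate and its isomer. Geranylgeranyl diphosphate, made from these units, feeds carotenoids, the phytol tail of chlorophyll, tocopherols and gibberellins. Carotenoids protect the photosynthetic apparatus and are the precursors of abscisic acid, and dark-grown seedlings hold a small carotenoid pool in etioplasts, the plastids that become chloroplasts in the light. PIF1 is known to bind the promoter of PSY, the gene of the enzyme that commits geranylgeranyl diphosphate to carotenoids, and to repress it.

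The promoters of 4 genes on which the results below turn are printed first, since G-boxes and related motifs are known binding sites of PIFs. Each is the stretch from 250 bases before to 50 bases after the gene start annotated by RefSeq in TAIR10.1, on the strand of the gene. Capitals mark the G-box CACGTG, which is its own reverse complement, and the PIF binding E-box (PBE) CACATG or, read from the other strand, CATGTG. The motifs do not overlap each other.
DXS (AT4G15560, chr4:8883575-8883874, plus strand): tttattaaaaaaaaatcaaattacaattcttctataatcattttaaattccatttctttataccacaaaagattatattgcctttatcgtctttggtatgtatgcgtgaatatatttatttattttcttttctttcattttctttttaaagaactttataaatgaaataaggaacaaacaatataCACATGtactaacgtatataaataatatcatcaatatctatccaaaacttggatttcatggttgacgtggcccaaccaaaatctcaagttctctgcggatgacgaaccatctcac
ISPF (AT1G63970, chr1:23740335-23740634, minus strand): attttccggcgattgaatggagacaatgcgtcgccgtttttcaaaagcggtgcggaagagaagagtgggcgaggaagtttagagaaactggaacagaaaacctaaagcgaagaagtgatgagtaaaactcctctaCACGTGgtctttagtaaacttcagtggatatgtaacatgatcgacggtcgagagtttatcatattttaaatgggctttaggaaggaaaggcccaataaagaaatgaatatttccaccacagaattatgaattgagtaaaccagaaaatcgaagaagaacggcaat
PSY (AT5G17230, chr5:5662948-5663247, minus strand): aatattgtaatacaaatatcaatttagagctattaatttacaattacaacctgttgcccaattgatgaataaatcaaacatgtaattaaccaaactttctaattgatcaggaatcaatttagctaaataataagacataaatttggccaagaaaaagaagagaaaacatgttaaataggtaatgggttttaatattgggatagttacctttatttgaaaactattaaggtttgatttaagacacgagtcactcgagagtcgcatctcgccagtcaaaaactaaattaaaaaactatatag
VTE4 (AT1G64970, chr1:24136060-24136359, minus strand): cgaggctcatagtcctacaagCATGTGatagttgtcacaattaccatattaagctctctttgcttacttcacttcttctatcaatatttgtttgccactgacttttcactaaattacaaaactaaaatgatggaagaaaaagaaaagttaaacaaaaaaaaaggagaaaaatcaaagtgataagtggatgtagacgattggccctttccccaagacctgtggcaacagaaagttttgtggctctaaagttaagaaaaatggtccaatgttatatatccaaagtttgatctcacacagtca

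A G-box was present in 3 of the 31 members' promoters searched (9.68%) and in 8.50% of the promoters of 22765 protein-coding genes in the files. A PBE was present in 5 members (16.1%) and in 13.0% of all genes, and either motif in 7 members (22.6%) and in 20.1% of all genes. ISPF held a G-box that began 115 bases before the start. BCH2 held a G-box and a PBE, VTE2 a G-box, and DXS, HDR, VTE3 and VTE4 a PBE each. The PSY window held neither. Among the 7 genes with a match, DXS and HDR fell and VTE4 rose in f1f3 against Col, and ISPF rose in pifq against Col, while BCH2, VTE2 and VTE3 did not pass in either. Over all 32 members 2 rose and 10 fell in f1f3 against Col, and 4 rose in pifq against Col. Of all genes tested, 11.6% rose and 12.8% fell in f1f3 against Col, and 3.61% rose in pifq against Col. The motif matches are letters in a fixed window and describe no binding.

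The libraries held 27.7 and 19.4 M recovered reads in pifq, 20.2 and 21.6 M in f1f3, and 17.9 and 23.8 M in Col. All values below are deposited values, which are reads divided by a factor for each library. Transcripts of the targeted genes were lower but present in f1f3, with FYPP1 at 386 and 285 in f1f3, against 712 and 759 in Col, and FYPP3 at 285 and 259.8 in f1f3, against 583 and 597 in Col. In pifq, PIF3 stood at 62.3 and 37.5 in pifq, against 1776 and 1959.5 in Col, and PIF5 at 87.8 and 139.6 in pifq, against 470.3 and 659.9 in Col, while PIF1 and PIF4 did not pass (0.46 and 0.89 on the log2 scale, limma adjusted p = 0.125 and 0.0808). The library of pifq replicate 1 stood apart: 10 seed storage and late embryogenesis markers summed to 20353 in it and to 27.1 in pifq replicate 2, to 102.6 and 148.4 in f1f3, and to 135 and 27.3 in Col. The 6 cotyledon and green tissue markers, none at 0, summed to 447751 and 590600 in pifq, 113981 and 73582 in f1f3, and 314533 and 277138 in Col. Of these 6, 5 fell in f1f3 against Col, where 12.8% of all genes fell, and 2 rose in pifq against Col, where 3.61% of all genes rose. RBCS1A, which passed in no comparison, stood at 215667 and 247743 in pifq, 97735 and 64981 in f1f3, and 250831 and 222663 in Col. It was thus a large part of each sum. CAB2, 1 of the 2 that rose, stood at 74115 and 155431 in pifq, 355 and 454 in f1f3, and 2197.5 and 2544 in Col. Of 7 root markers, none at 0, 5 rose and 1 fell in f1f3 against Col, where 11.6% and 12.8% of all genes did. The 7 summed to 1474 and 2104 in pifq, 4290 and 4739 in f1f3, and 1756 and 3694 in Col. The marker that fell was IRT1, at 205 and 420 in pifq, 22.2 and 0.9 in f1f3, and 278 and 1660 in Col. IRT1 was thus a large part of the sum in Col replicate 2. The part of these markers in the differences below was not tested. In RNA of whole seedlings fewer cells of a type and less RNA per cell cannot be told apart.

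In f1f3 against Col, 2 of the 32 genes rose, 10 fell and 20 did not pass, where rose and fell mean a limma adjusted p under 0.05. Among all genes tested 11.6% rose and 12.8% fell. The members' median log2 fold change was -0.40, beside -0.0038 for all genes, and the libraries of f1f3 and Col did not overlap for 27 of the 32, where 65.9% of all genes had no overlap. The 10 genes that fell were DXS, HDR, LYC, BCH1, ZEP, NPQ1, CCD4, CCD1, NCED3 and HPPD, and those that rose were MCT and VTE4. Against Col, 4 genes rose in pifq (ISPF, PSY, Z-ISO and CYP97A3), where 3.61% of all genes rose, and 0 fell, where 2.87% of all genes fell. At an unadjusted limma p under 0.05, 10 members were higher in pifq than in Col and 2, BCH1 and HPPD, were lower. Of the 20581 genes tested, 2619 were higher and 2220 lower at that level. Among the members, edgeR called 0 as fallen and DESeq2 called 2. The median was 0.20, beside -0.011 for all genes, with 24 of 32 values above 0, where 10086 of the 20581 genes tested were. In pifq against Col 21 members had no overlap, against 54.5% of all genes. Between the mutants, 13 genes rose and 1 fell in pifq against f1f3, where 9.36% and 6.63% of all genes did. The median there was 0.62, beside -0.020 for all genes, and 29 of 32 members had no overlap, against 59.2% of all genes. The 3 comparisons share libraries, so their values stand side by side and are not independent.

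**Figure D1:**
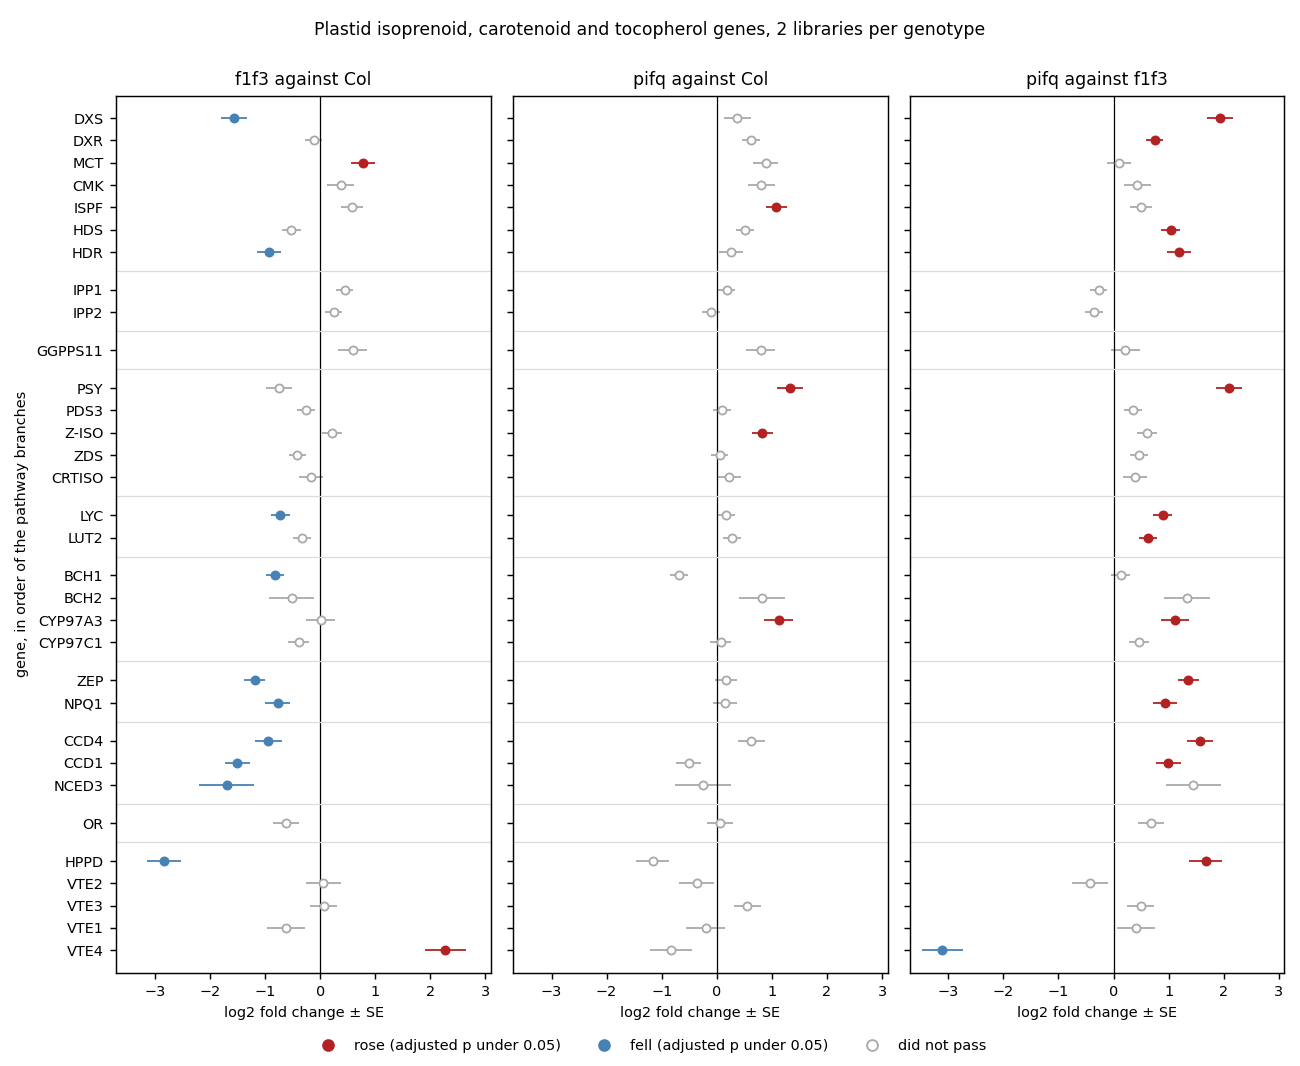
Log2 fold change with its standard error for the 32 genes in 3 comparisons of 2 against 2 libraries, in the order of the pathway branches. Filled red points rose, filled blue points fell and open grey points did not pass at a limma adjusted p of 0.05: 2 rose and 10 fell in f1f3 against Col, 4 rose in pifq against Col, and 13 rose and 1 fell in pifq against f1f3.

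The counts depended on single libraries, for the members and for all genes. In f1f3 against Col, 2384 of all genes rose and 2634 fell with the 6 libraries. Without f1f3 replicate 2, 0 members rose and 4 fell, beside 536 and 924 of all genes. Leaving out Col replicate 1 gave 1 member that rose and 6 that fell, beside 1237 and 1415 of all genes, and leaving out Col replicate 2 gave 1 and 5, beside 863 and 1148. For pifq against Col, where 742 of all genes rose, 0 members rose without pifq replicate 1, which carried the seed storage transcripts (149 of all genes), 0 without pifq replicate 2 (250 of all genes) and 0 without Col replicate 1 (232 of all genes), and 2 without any other single library (221 to 689 of all genes). For pifq against f1f3, where 1927 of all genes rose, 5 members rose without f1f3 replicate 2 (882 of all genes), 7 without pifq replicate 2 (781 of all genes) and 10 without pifq replicate 1 (1191 of all genes). Scaling by library totals put the all-gene median at 0.116 in f1f3 against Col and at -0.151 in pifq against f1f3. The members then called were 3 that rose and 8 that fell in f1f3 against Col, beside 2911 and 2084 of all genes, where the main scaling gave 2384 and 2634. With library totals 10 members rose and 1 fell in pifq against f1f3, beside 1518 and 1894 of all genes, where the main scaling gave 1927 and 1364.

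Among the 7 MEP pathway genes, those of the first and the last enzyme fell in f1f3 against Col, an intermediate one rose, and 4 did not pass. Of all genes tested 11.6% rose and 12.8% fell. At an unadjusted limma p under 0.05, 3 of the 7 were lower and 2 higher, beside 4085 and 3957 of the 20581 genes tested. DXS (AT4G15560), the deoxyxylulose phosphate synthase that opens the pathway and is a main control point of its flux, had values of 11239 and 14893 in pifq, 3818 and 2998 in f1f3, and 9127 and 10924 in Col. Both f1f3 libraries lay far below the other 4. The difference was -1.56, SE 0.24, limma adjusted p = 0.00519 in f1f3 against Col and 1.93, SE 0.24, limma adjusted p = 0.00188 in pifq against f1f3, both past the threshold under each of the 16 alternatives, while pifq against Col did not pass (0.37, limma adjusted p = 0.386, 95% interval -0.18 to 0.92). HDR (AT4G34350), the reductase that releases isopentenyl diphosphate and its isomer, had 4073 and 5329 in pifq, 2170.3 and 1926 in f1f3, and 3391 and 4455 in Col. Its levels in f1f3 were again below all others, and pifq and Col overlapped. HDR fell in f1f3 (-0.93, SE 0.22, limma adjusted p = 0.0194) and rose in pifq against f1f3 (1.19, SE 0.22, limma adjusted p = 0.00956). MCT (AT2G02500), the cytidylyl transferase of the third step, had 258 and 241 in pifq, 216 and 250.2 in f1f3, and 125 and 145 in Col. Both mutants stood above Col and overlapped each other. MCT rose in f1f3 (0.78, SE 0.22, limma adjusted p = 0.0352) and was at 0.88 in pifq against Col, just short of the threshold (adjusted p = 0.0539).

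The remaining MEP genes were highest in pifq. ISPF (AT1G63970), the cyclodiphosphate synthase, had 623 and 650.3 in pifq, 515 and 392 in f1f3, and 294 and 307 in Col, so that no genotype overlapped another. It rose in pifq against Col (1.08, SE 0.20, limma adjusted p = 0.02), and was at 0.58 in f1f3 against Col (adjusted p = 0.0646). HDS (AT5G60600), the reductive step before HDR, had 5904 and 5565 in pifq, 2695 and 2906 in f1f3, and 3965 and 4086 in Col. Again the 3 genotypes did not overlap. HDS was lowest in f1f3 but did not pass in f1f3 against Col, and it rose in pifq against f1f3 (1.03, SE 0.17, limma adjusted p = 0.00624) under each of the 16 alternatives. DXR (AT5G62790), the reductoisomerase of the second step, had 2107 and 1953 in pifq, 1275 and 1151 in f1f3, and 1329 and 1303 in Col, with pifq above the rest, and it rose in pifq against f1f3 (0.74, SE 0.16, limma adjusted p = 0.018). CMK (AT2G26930), the kinase, passed in no comparison, at 0.37 in f1f3 and 0.80 in pifq against Col. All 7 genes were above 0 in pifq against Col, with a median of 0.62 and 1 call, where 10086 of the 20581 genes tested were above 0. In f1f3 against Col 3 were above 0 and 4 below, where 10256 and 10324 of all genes were. The call of HDR in f1f3 against Col was lost without f1f3 replicate 2 (0.1) or Col replicate 2 (0.119), and that of MCT without any 1 library (0.0529 to 0.158) or with the compared pair of genotypes alone (0.0558), all limma adjusted p. ISPF in pifq against Col was lost without pifq replicate 1 (0.0989), pifq replicate 2 (0.0814), Col replicate 1 (0.097) or Col replicate 2 (0.0801). Between pifq and f1f3, DXR was lost without f1f3 replicate 2 (0.0943), pifq replicate 1 (0.0829) or pifq replicate 2 (0.067), and HDR without f1f3 replicate 2 (0.0615) or pifq replicate 2 (0.0639).

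The isomerases and the geranylgeranyl diphosphate synthase passed in no comparison. IPP1 (AT5G16440) and IPP2 (AT3G02780) interconvert isopentenyl and dimethylallyl diphosphate. IPP1 had 1076 and 1060.1 in pifq, 1275 and 1301 in f1f3, and 932 and 959 in Col, and IPP2 1611 and 1783 in pifq, 2218 and 2119.7 in f1f3, and 1802 and 1857 in Col. Both were highest in f1f3, at 0.45 and 0.25 against Col (limma adjusted p = 0.0673 and 0.288). GGPPS11 (AT4G36810), the main plastid synthase of geranylgeranyl diphosphate, had 1214 and 741 in pifq, 953 and 705 in f1f3, and 569 and 522 in Col. Both mutants lay above Col, at 0.80 in pifq (95% interval 0.20 to 1.40) and 0.59 in f1f3 (-0.01 to 1.19), with limma adjusted p = 0.113 and 0.134. IPP2 shares 712 bases of its annotated span with AT3G02790 on the other strand, which rose in f1f3 (0.62, limma adjusted p = 0.0457). Use of strand in counting is not given in the sources used here, so reads of such overlaps cannot be told apart. GGPPS11 likewise lies over the antisense transcript AT4G36808, which had values of at most 1.3 in any library.

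In carotene synthesis, PSY and Z-ISO were higher in pifq than in Col. PSY (AT5G17230), phytoene synthase, makes the first carotenoid and had 3245 and 3911 in pifq, 827 and 847 in f1f3, and 1119 and 1779 in Col. Every pifq library was above every other library, and f1f3 was below Col. GSTF12, whose span shares 108 bases with PSY on the other strand, had at most 13.2 in any library. PSY averaged 3578 ± 471 in pifq, 837 ± 14.3 in f1f3 and 1449 ± 467 in Col (SD, n = 2 each). It rose in pifq against Col (1.34, SE 0.23, limma adjusted p = 0.0177) and against f1f3 (2.09, SE 0.23, limma adjusted p = 0.00134, past the threshold under each of the 16 alternatives). In f1f3 against Col it was at -0.75 with a limma adjusted p of 0.05004, just above the threshold of 0.05, and its call varied with the processing. It passed with edgeR and RLE factors (edgeR adjusted p = 0.0481), with DESeq2 (adjusted p = 0.0154), and in limma with a pseudocount of 5 (adjusted p = 0.0487), a value of at least 10 in all 6 libraries (0.0467) or without Col replicate 1 (-1.09, 0.0258). It did not pass with edgeR and TMM factors (edgeR adjusted p = 0.05009), nor in limma with library totals (adjusted p = 0.114), a pseudocount of 0.5 (0.0507), no filter (0.0555), the compared pair of genotypes alone (0.063) or without any other single library (0.0617 to 0.283), and without Col replicate 2 it was at -0.42. Z-ISO (AT1G10830), the isomerase of zeta-carotene, had 747 and 669.6 in pifq, 444 and 481 in f1f3, and 436 and 363 in Col. Its pifq values were the highest, and it rose in pifq against Col (0.83, SE 0.18, limma adjusted p = 0.0375). The desaturases PDS3 (AT4G14210) and ZDS (AT3G04870) and the isomerase CRTISO (AT1G06820), which complete lycopene, passed in no comparison, with values against Col between 0.05 and 0.22 in pifq and between -0.41 and -0.16 in f1f3. ZDS had 1699 and 1762 in pifq, 1219 and 1293 in f1f3, and 1636 and 1707 in Col, so f1f3 was below both other genotypes, which overlapped. PSY in pifq against Col was lost without pifq replicate 1 (0.0653), pifq replicate 2 (0.0797) or Col replicate 1 (0.0808), and Z-ISO without any 1 library (0.051 to 0.202) or with the compared pair of genotypes alone (0.052), all limma adjusted p.

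The lycopene cyclases divide the pathway into a branch with beta rings alone and a branch that leads to lutein. LYC (AT3G10230), the beta cyclase, had 1098 and 1054 in pifq, 639 and 528 in f1f3, and 966 and 953 in Col. Both f1f3 libraries were below the other 4, and LYC fell in f1f3 against Col (-0.72, SE 0.17, limma adjusted p = 0.0198) and rose in pifq against f1f3 (0.89, SE 0.17, limma adjusted p = 0.0114). LYC shares 157 bases of its span with EMB2804 on the other strand, which did not pass in either comparison (0.08 and -0.21, limma adjusted p = 0.832 and 0.566). It also shares 199 bases with the antisense transcript AT3G02305, which has no deposited value. LUT2 (AT5G57030), the epsilon cyclase, had 945 and 945 in pifq, 579 and 653 in f1f3, and 749 and 805 in Col. The genotypes kept the same order without overlap, and LUT2 rose in pifq against f1f3 (0.62, SE 0.16, limma adjusted p = 0.0387) but did not pass in f1f3 against Col (-0.34, limma adjusted p = 0.166). LYC in f1f3 against Col was lost without f1f3 replicate 2 (0.108), Col replicate 1 (0.0866) or Col replicate 2 (0.0888). LYC in pifq against f1f3 was lost without f1f3 replicate 2 (0.0706), pifq replicate 1 (0.0567) or pifq replicate 2 (0.0568), and LUT2 without any 1 library (0.0647 to 0.145), with library totals (0.133) or with the compared pair of genotypes alone (0.0638), all limma adjusted p.

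The hydroxylases that turn carotenes into xanthophylls differed among themselves. BCH1 (AT4G25700), a non-heme beta-carotene hydroxylase, had 764 and 745 in pifq, 727 and 657 in f1f3, and 1319 and 1124 in Col. Both mutants lay below Col. BCH1 fell in f1f3 (-0.82, SE 0.17, limma adjusted p = 0.0131), and in pifq it was at -0.69 and did not pass (limma adjusted p = 0.0513). BCH2 (AT5G52570), its paralog, had 206 and 547 in pifq, 141 and 125 in f1f3, and 209.5 and 172 in Col. The pifq libraries differed widely, 1 within the range of Col and 1 far above it, and BCH2 passed in no comparison. CYP97A3 (AT1G31800), a cytochrome P450 hydroxylase of the beta ring in the lutein branch, had 792 and 916 in pifq, 345 and 449 in f1f3, and 308 and 495 in Col. Both pifq values were above the rest, and CYP97A3 rose against Col (1.12, SE 0.26, limma adjusted p = 0.043) and against f1f3 (1.11, SE 0.26, limma adjusted p = 0.0246). CYP97C1 (AT3G53130), which hydroxylates the epsilon ring, passed in no comparison (-0.39 in f1f3 and 0.07 in pifq against Col), and its annotated span shares 1900 bases with AT3G53140 on the same strand. BCH1 in f1f3 against Col was lost without f1f3 replicate 2 (0.0751) or Col replicate 1 (0.0812). CYP97A3 in pifq against Col was lost without f1f3 replicate 1 (0.0508), f1f3 replicate 2 (0.0531), pifq replicate 1 (0.146), pifq replicate 2 (0.144), Col replicate 1 (0.186), with library totals (0.0635) or with the compared pair of genotypes alone (0.0522), and against f1f3 without f1f3 replicate 1 (0.114), f1f3 replicate 2 (0.0575), pifq replicate 1 (0.066), pifq replicate 2 (0.131) or with library totals (0.0551), all limma adjusted p.

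**Figure D2:**
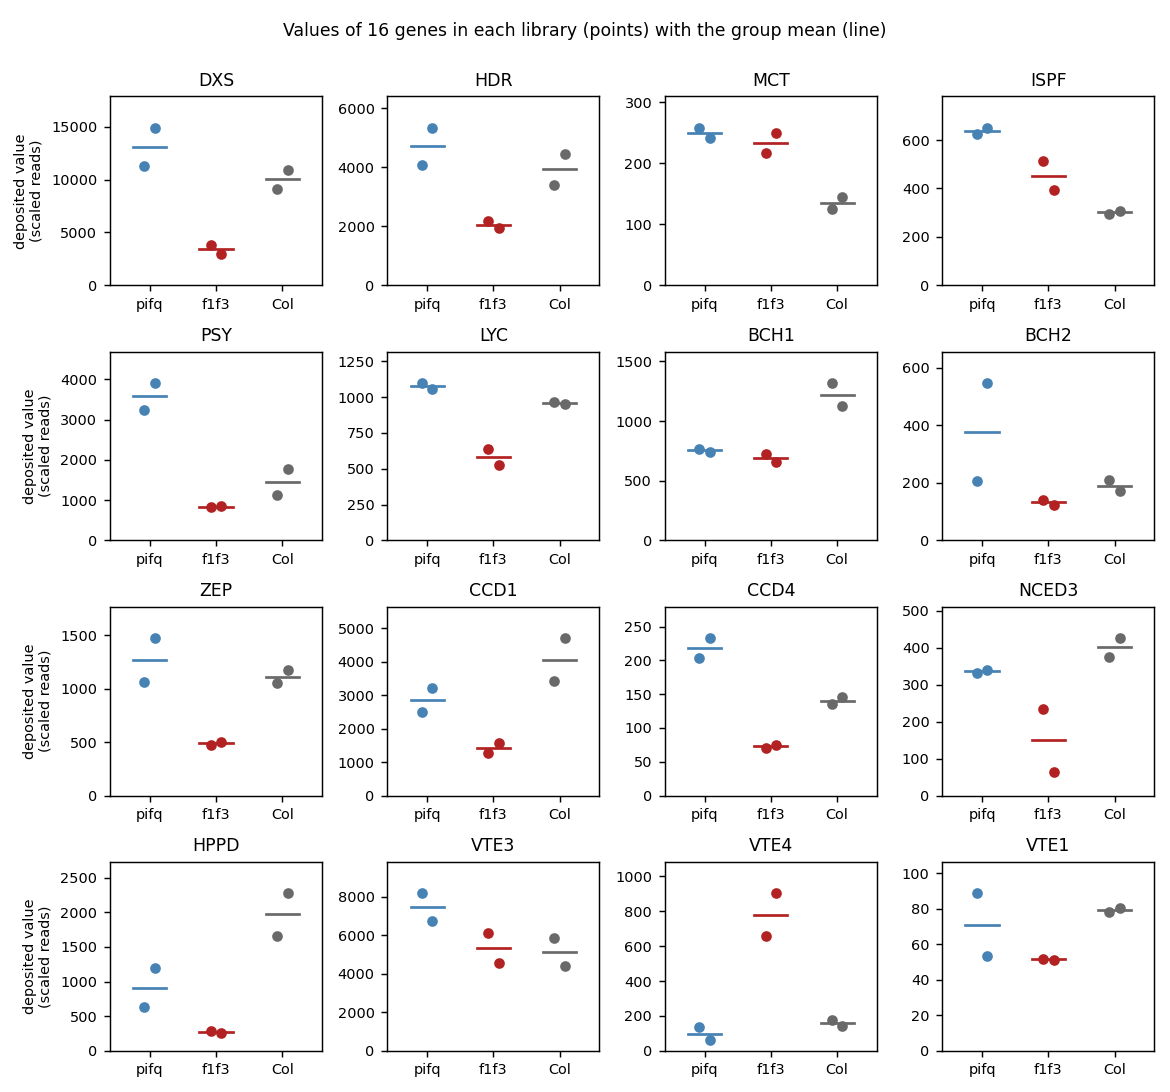
Deposited values (reads scaled per library, linear axes from 0) of 16 of the 32 genes in pifq, f1f3 and Col, with 1 point per library and a line at the mean of 2 libraries. DXS, HDR, LYC, ZEP, CCD1, CCD4, NCED3 and HPPD are lowest in f1f3, PSY and ISPF are highest in pifq, BCH1 is lower in both mutants than in Col, and VTE4 is highest in f1f3.

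Both genes of the xanthophyll cycle fell in f1f3 against Col, where 12.8% of all genes fell. ZEP (AT5G67030), zeaxanthin epoxidase, also supplies the epoxides from which abscisic acid is made, and had 1065 and 1473 in pifq, 470 and 506 in f1f3, and 1058 and 1172 in Col. Its f1f3 values were less than those of any other library and it fell against Col (-1.19, SE 0.20, limma adjusted p = 0.0066) and was higher in pifq than in f1f3 (1.36, SE 0.20, limma adjusted p = 0.00367), in both cases under each of the 16 alternatives. NPQ1 (AT1G08550), violaxanthin de-epoxidase, runs the opposite reaction in high light and had 865 and 621 in pifq, 429 and 345 in f1f3, and 618 and 701 in Col. It fell in f1f3 (-0.77, SE 0.22, limma adjusted p = 0.0367) and rose in pifq against f1f3 (0.93, SE 0.22, limma adjusted p = 0.0258), and pifq and Col overlapped for both genes. NPQ1 shares 464 bases of its span with SYP111 on the other strand, which stood at 903 and 546 in pifq, 557 and 539 in f1f3, and 298 and 284 in Col and rose in f1f3 against Col (0.91, limma adjusted p = 0.0308), where NPQ1 fell. SYP111 also rose in pifq against Col (1.27, limma adjusted p = 0.0246) and did not pass in pifq against f1f3 (0.36, limma adjusted p = 0.363). The call of NPQ1 in f1f3 against Col was lost without f1f3 replicate 1 (0.0543), f1f3 replicate 2 (0.178), Col replicate 1 (0.084), Col replicate 2 (0.161) or with library totals (0.0673), and in pifq against f1f3 without f1f3 replicate 2 (0.133) or pifq replicate 1 (0.126), all limma adjusted p.

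The 3 members that are dioxygenases cleaving carotenoids all fell in f1f3 against Col, with a median of -1.50. Of all genes tested 12.8% fell there, with a median of -0.0038 over all genes. CCD1 (AT3G63520), a cytosolic enzyme that releases volatile apocarotenoids, had 2482 and 3197 in pifq, 1277 and 1564 in f1f3, and 3408 and 4696 in Col. No genotype overlapped another, and Col was highest. CCD1 fell in f1f3 (-1.50, SE 0.23, limma adjusted p = 0.00494) under each of the 16 alternatives, was at -0.51 in pifq against Col (limma adjusted p = 0.224) and rose in pifq against f1f3 (0.99, SE 0.23, limma adjusted p = 0.0226). CCD4 (AT4G19170), a plastid enzyme that lowers carotenoid content, had 204 and 233 in pifq, 70.9 and 74.6 in f1f3, and 135 and 146 in Col. Here pifq was highest and the genotypes again did not overlap. CCD4 fell in f1f3 (-0.94, SE 0.24, limma adjusted p = 0.0259) and rose in pifq against f1f3 (1.57, SE 0.24, limma adjusted p = 0.00459), the second under each of the 16 alternatives. NCED3 (AT3G14440), the epoxycarotenoid dioxygenase that controls stress-induced abscisic acid synthesis, had 332 and 341 in pifq, 235 and 64.1 in f1f3, and 377 and 426 in Col. Its f1f3 libraries lay below all others but far from each other, and it fell (-1.70, SE 0.50, limma adjusted p = 0.042). OR (AT5G61670), a plastid chaperone that stabilises phytoene synthase, had 529 and 817 in pifq, 415 and 408 in f1f3, and 582 and 689 in Col and passed in no comparison. In f1f3 against Col, CCD4 was lost without f1f3 replicate 1 (0.0749), f1f3 replicate 2 (0.0826), Col replicate 1 (0.0846), Col replicate 2 (0.126) or with library totals (0.0567), and NCED3 without f1f3 replicate 2 (0.0864), pifq replicate 1 (0.0592), pifq replicate 2 (0.0603), Col replicate 1 (0.0903), Col replicate 2 (0.13), with edgeR and TMM factors (0.0593), with edgeR and RLE factors (0.0619) or with the compared pair of genotypes alone (0.0615). CCD1 in pifq against f1f3 was lost without f1f3 replicate 1 (0.105), f1f3 replicate 2 (0.0587), pifq replicate 2 (0.132) or with library totals (0.0519). All are limma adjusted p except the edgeR values.

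Tocopherol synthesis held the member that fell most and the member that rose most in f1f3 against Col. HPPD (AT1G06570), hydroxyphenylpyruvate dioxygenase, makes homogentisate, the head group of tocopherols and plastoquinone, and had 627 and 1199.7 in pifq, 288 and 256 in f1f3, and 1664 and 2273 in Col. The genotypes did not overlap, with Col highest and f1f3 lowest. HPPD averaged 913 ± 405 in pifq, 272 ± 22.4 in f1f3 and 1969 ± 430.3 in Col (SD, n = 2 each). It fell in f1f3 (-2.84, SE 0.30, limma adjusted p = 0.00226, 95% interval -3.53 to -2.14) under each of the 16 alternatives and was higher in pifq than in f1f3 (1.67, SE 0.30, limma adjusted p = 0.0095). In pifq against Col it was at -1.16 and did not pass (limma adjusted p = 0.0615). VTE4 (AT1G64970), the methyltransferase that converts gamma-tocopherol to alpha-tocopherol, ran the other way, with 133 and 59 in pifq, 659.5 and 902 in f1f3, and 175 and 144 in Col. Both f1f3 libraries were far above the other 4. VTE4 averaged 96.2 ± 52.6 in pifq, 781 ± 172 in f1f3 and 159.6 ± 21.5 in Col (SD, n = 2 each). It rose in f1f3 (2.27, SE 0.37, limma adjusted p = 0.00633, 95% interval 1.41 to 3.13) and was lower in pifq than in f1f3 (-3.10, SE 0.37, limma adjusted p = 0.00171), the second under each of the 16 alternatives. HEB1, which shares 120 bases of span with VTE4 on the other strand, did not pass in f1f3 (0.19, limma adjusted p = 0.561). VTE4 also shares 496 bases with the antisense transcript AT1G08733, which has no deposited value. Reads of that overlap cannot be told apart from those of VTE4, since the use of strand is not given.

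VTE2 (AT2G18950), VTE3 (AT3G63410) and VTE1 (AT4G32770) passed in no comparison. VTE2, the prenyltransferase that joins homogentisate and phytyl diphosphate, had 59.9 and 91.9 in pifq, 88.9 and 112 in f1f3, and 104 and 88.4 in Col, and all 3 genotypes overlapped. VTE3, a methyltransferase of tocopherol and plastoquinone synthesis, had 8164 and 6753 in pifq, 6125 and 4559 in f1f3, and 5852 and 4384 in Col. The pifq values were above the rest, at 0.55 against Col (95% interval -0.00 to 1.11, limma adjusted p = 0.214). VTE1, the tocopherol cyclase, had 88.6 and 53.3 in pifq, 51.9 and 50.9 in f1f3, and 78.4 and 80.5 in Col. Both f1f3 libraries were lowest, at -0.62 against Col (95% interval -1.41 to 0.18, limma adjusted p = 0.221). The call of VTE4 in f1f3 against Col was lost without f1f3 replicate 2 (0.0511), and that of HPPD in pifq against f1f3 without f1f3 replicate 2 (0.062), both limma adjusted p.

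Levels of different genes were compared per kb of the longest annotated transcript. VTE3 had the highest mean level of the 32 genes in each genotype, at 5480 ± 733 per kb in pifq, 3925 ± 814 in f1f3 and 3760 ± 763 in Col (SD, n = 2 each). Next in each came DXS, at 4414 ± 873 in pifq, 1151 ± 196 in f1f3 and 3387 ± 429 in Col, and its pifq and Col levels overlapped those of VTE3. In f1f3, DXS, HDR at 1150 ± 97.1 per kb and IPP2 at 1148 ± 36.7 per kb could not be separated. VTE1 had the lowest mean in each genotype, at 36.2 ± 12.7 per kb in pifq, 26.3 ± 0.361 in f1f3 and 40.6 ± 0.758 in Col. It overlapped VTE2 in pifq (39.1 ± 11.7 per kb), and in f1f3 replicate 2 NCED3, at 23.5 per kb, was below both f1f3 values of VTE1. The order of some genes differed between genotypes. HPPD ranked 13 in pifq, 24 in f1f3 and 6 in Col. PSY ranked 5 in pifq, 14 in f1f3 and 12 in Col, and VTE4 ranked 30 in pifq, 11 in f1f3 and 28 in Col.

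**Figure D3:**
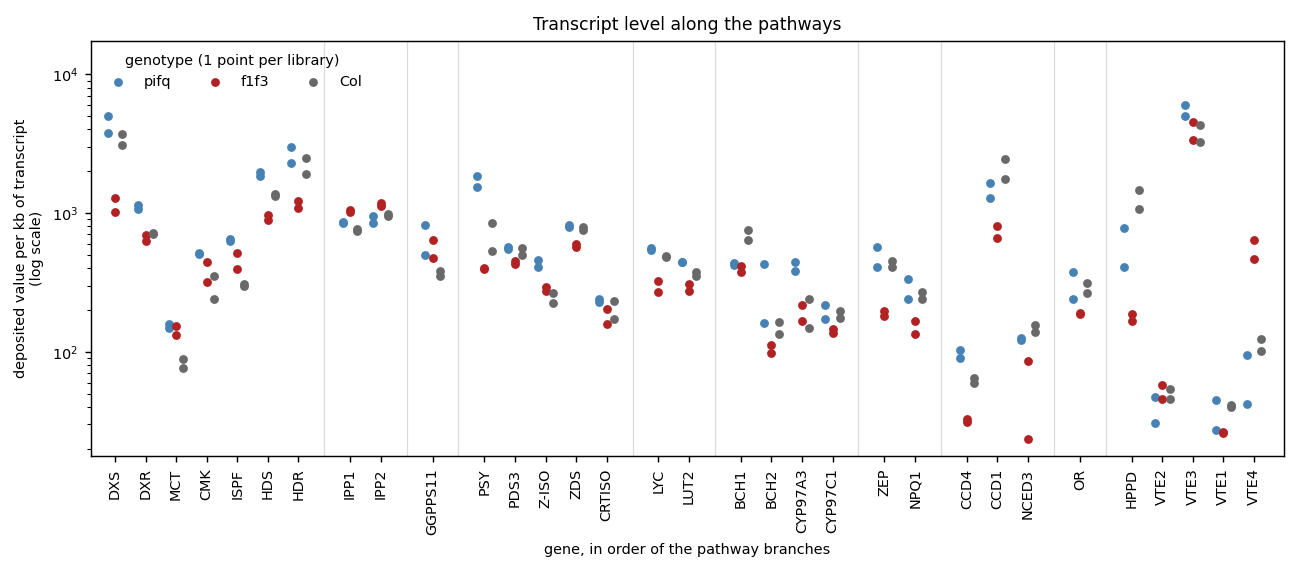
Deposited value per kb of the longest annotated transcript (log axis) for the 32 genes in pathway order, with 1 point per library for pifq, f1f3 and Col. By mean, VTE3 and DXS are highest and VTE1 is lowest in each genotype, but in f1f3 DXS overlaps HDR and IPP2, and VTE1 overlaps VTE2 in pifq and NCED3 in f1f3. VTE4 is the gene whose f1f3 points stand farthest above the others.

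Ratios of paired genes within a library do not depend on the scaling of the library, and with 2 against 2 libraries the smallest p of a two-sided exact permutation test is 0.333. The ratio of LUT2 to LYC was 0.860 and 0.897 in pifq, 0.906 and 1.24 in f1f3, and 0.775 and 0.845 in Col. Both mutants stood above Col, by 0.12 in pifq and 0.39 in f1f3 on the log2 scale (exact permutation p = 0.333 for each). The ratio of BCH2 to BCH1 was 0.270 and 0.735 in pifq, 0.194 and 0.190 in f1f3, and 0.159 and 0.153 in Col. It was higher in both mutants, by 1.51 on the log2 scale in pifq and by 0.30 in f1f3, without overlap with Col (exact permutation p = 0.333 for each). The ratio of ZEP to NPQ1 was 1.23 and 2.37 in pifq, 1.10 and 1.47 in f1f3, and 1.71 and 1.67 in Col, so that f1f3 lay below Col, by -0.42 on the log2 scale, and pifq overlapped both. For IPP1 to IPP2 the ratios were 0.668 and 0.595 in pifq, 0.575 and 0.614 in f1f3, and 0.517 in both Col libraries. Ratios of values are not per length and do not say which gene of a pair has more transcripts.

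**Figure D4:**
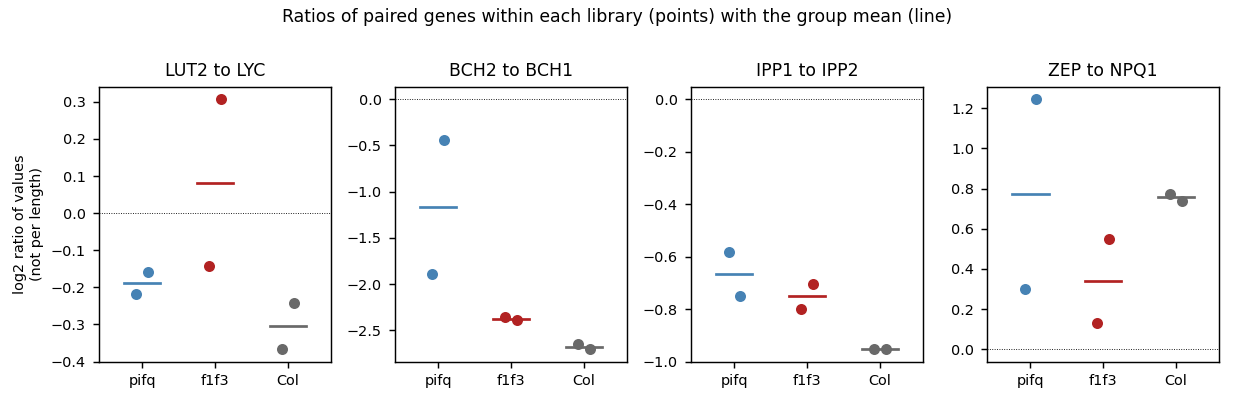
Log2 ratio of the values of 4 gene pairs within each library (1 point per library, line at the mean of 2 libraries) in pifq, f1f3 and Col. LUT2 to LYC, BCH2 to BCH1 and IPP1 to IPP2 lie higher in both mutants than in Col, and ZEP to NPQ1 lies lower in f1f3 than in Col.

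Other genes of connected pathways were counted beside the members. Of 17 tested of 18 other plastid isoprenoid genes, 1 rose and 6 fell in f1f3 against Col, 2 rose in pifq against Col, and 7 rose and 1 fell in pifq against f1f3. Of all genes tested, 11.6% rose and 12.8% fell in f1f3 against Col, and 3.61% rose in pifq against Col. In pifq against f1f3 9.36% of all genes rose and 6.63% fell. The geranylgeranyl reductase AT1G74470, which makes the phytyl chain of chlorophyll and tocopherol, stood at 30658 and 27758 in pifq, 11113 and 6343 in f1f3, and 33579 and 33272 in Col. Its f1f3 values were far below the rest (-1.99, SE 0.32, limma adjusted p = 0.00579). VTE5, the kinase that recovers phytol for tocopherols, had 547 and 834 in pifq, 206 and 195 in f1f3, and 503 and 521 in Col and fell in f1f3 (-1.35, SE 0.23, limma adjusted p = 0.00702). TAT7, a tyrosine aminotransferase that supplies the substrate of HPPD, had 174 and 245 in pifq, 85.8 and 85.1 in f1f3, and 224 and 354 in Col and fell in f1f3 (-1.71, SE 0.30, limma adjusted p = 0.0074). These 3 calls in f1f3 against Col held under each of the 16 alternatives. AT5G06130 fell as well (-0.86, SE 0.16, limma adjusted p = 0.00903), but not without f1f3 replicate 2 (0.0564) or Col replicate 2 (0.0563). Chosen after their values were seen, GPS1 was the gene that rose in f1f3 (0.72, limma adjusted p = 0.037), and HST, which joins homogentisate to the plastoquinone chain (0.72, limma adjusted p = 0.0472), and ABC4 (0.76, limma adjusted p = 0.0385) were those that rose in pifq against Col. GPS1 in f1f3 against Col was lost without f1f3 replicate 2, Col replicate 1 or Col replicate 2. HST and ABC4 in pifq against Col were lost without any 1 of the 6 libraries. In pifq against f1f3 the calls of ABC4, CLPC1, GPS1, HST and TAT7 were each lost under 3 to 5 of the 16 alternatives. CLPC1 was likewise chosen after its values were seen.

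Of 7 tested of 11 other abscisic acid and strigolactone synthesis genes, 1 rose and 2 fell in f1f3 against Col, where 11.6% and 12.8% of all genes did. In pifq against f1f3 limma called 0 of the 7, where 9.36% of all genes rose and 6.63% fell. ABA2, the dehydrogenase that makes abscisic aldehyde, had 295 and 242 in pifq, 451 and 359 in f1f3, and 231 and 179 in Col and rose in f1f3 (0.98, SE 0.23, limma adjusted p = 0.0207). CCD8, a strigolactone enzyme, had 72.7 and 27.2 in pifq, 21.2 and 22.8 in f1f3, and 150.4 and 88.4 in Col and fell in f1f3 (-2.34, SE 0.51, limma adjusted p = 0.0158), and NCED9, a paralog of NCED3, had 19.2 and 4.5 in pifq, 12.7 and 4.4 in f1f3, and 57.8 and 52.5 in Col and fell (-2.71, SE 0.77, limma adjusted p = 0.0366). Without f1f3 replicate 2 the limma adjusted p was 0.0569 for ABA2, 0.0702 for CCD8 and 0.176 for NCED9, and ABA2 was also lost without f1f3 replicate 1 or Col replicate 2, CCD8 without f1f3 replicate 1 or Col replicate 1, and NCED9 without either Col library. In pifq against Col, limma, edgeR and DESeq2 called 0 of the 7, where limma called 3.61% of all genes as risen and 2.87% as fallen. At an unadjusted limma p under 0.05, 0 of the 7 were higher and 2 lower, beside 2619 and 2220 of the 20581 genes tested. Of the 12 genes of the cytosolic mevalonate pathway, which makes isopentenyl diphosphate outside the plastid, 1 rose and 1 fell in f1f3 against Col. Of all genes 11.6% rose and 12.8% fell. The mevalonate gene that rose was FPS2, a farnesyl diphosphate synthase (0.68, SE 0.19, limma adjusted p = 0.0344). The one that fell was AACT1, an acetoacetyl-CoA thiolase (-0.80, SE 0.17, limma adjusted p = 0.0153). Leaving out f1f3 replicate 1, f1f3 replicate 2 or Col replicate 1 ended both calls, and leaving out Col replicate 2 ended that of FPS2, with limma adjusted p between 0.0536 and 0.192. In pifq against Col all 3 tools called 0 of the 12, where limma called 3.61% of all genes as risen and 2.87% as fallen. At an unadjusted limma p under 0.05, 0 of the 12 were higher and 1 lower, beside 2619 and 2220 of the 20581 genes tested. In pifq against f1f3, 0 of the 12 rose and 2 fell, where 9.36% and 6.63% of all genes did. Leaving out f1f3 replicate 2 or pifq replicate 1 ended both of these calls. The median of the 12 genes in f1f3 against Col was 0.09, beside -0.12 for the MEP genes and -0.0038 for all genes.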

How the data were processed

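Total RNA of 6 seedling libraries (2 each of pifq, f1f3 and Col) was made into sequencing libraries by Illumina protocols, per the labels. Per the submitters' processing notes the genome build was TAIR10 and the tools named were HTSeq 0.6.1, TopHat2 2.1.0, Trimmomatic and edgeR. The step that made the files, the read length and the use of strand are not given in the sources used here. Each deposited file held a signal value for 24439 genes, and 100% of the values were whole multiples of 1 number per library, within a tolerance of 0.0505. That number times the median-of-ratios size factor was 1.0, so the deposited signal equals gene reads divided by that factor, and the reads were recovered (17.9 to 27.7 M per library). The lowest value of any member in any library was 50.9.

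Each comparison used limma 3.58.1 (R 4.3.3) as a two-sided moderated test of log2(value + 1) with a mean-variance trend, fitted to the 6 libraries together. Fold changes are on that scale and understate the change of low genes. The filter kept the 20581 genes that reached 10 in 2 or more libraries, with Benjamini-Hochberg adjustment over all of them and a threshold of 0.05, on 3 residual and 5.15 prior degrees of freedom. The p-values rest on a variance pooled over the 3 genotypes with 2 biological replicates each, and moderated by the trend over all genes tested. They do not rest on the spread within the compared groups alone. On the recovered reads, edgeR 4.0.16 with TMM factors called 2403 genes higher and 2546 lower in f1f3 against Col, and 770 and 606 in pifq against Col. The scripts were tested on simulated data.

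The 32 members, the further lists and the markers were chosen with earlier results of these data known. All members are named, and up to 4 genes of each further list, by the smallest p against Col, beside those said to be chosen after their values were seen. Of the 24439 loci, 24148 matched the RefSeq table of TAIR10.1, which gave names, transcript lengths and promoters. The promoter of 1 member is not reported here. No pair of members among 496 shared a stretch of 50 bases in their transcripts. The 16 alternatives were edgeR with TMM or RLE factors, DESeq2 1.42.0, library totals, pseudocounts of 0.5 and 5, no filter, a value of at least 10 in all 6 libraries, the compared pair of genotypes alone, a replicate block, and leaving out each library.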

Additional observations from a re-analysis of the deposited data

How the results depend on the processing

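Among the single members, 1384 of the values under the alternatives kept their direction and their side of the threshold, 82 lost a call, 46 gained one and 24 changed sign. No value that changed sign had been called in that comparison. Of 12 calls in f1f3 against Col 4 held under all 16 alternatives, of 4 in pifq against Col 0, and of 14 in pifq against f1f3 6. With 2 libraries per genotype, leaving out 1 leaves a lone sample that is assumed to vary like the other groups, and such fits have fewer degrees of freedom.

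Leaving out 1 library gave 0 to 1 members that rose and 4 to 9 that fell in f1f3 against Col, beside 536 to 2196 and 924 to 2454 of all genes. For pifq against Col the ranges were 0 to 2 and 0 to 1 members, beside 149 to 689 and 187 to 572 of all genes. For pifq against f1f3 they were 5 to 12 members that rose, beside 781 to 1735 and 535 to 1181 of all genes. DESeq2 called 8 members as risen and 2 as fallen in pifq against Col, beside 1355 and 1079 of all genes, where limma called 742 and 591. A pseudocount of 5 gave 1 fallen member there, as did a value of at least 10 in all 6 libraries. With the compared pair of genotypes alone, 1 member rose and 9 fell in f1f3 against Col, beside 2212 and 2429 of all genes. With that setting 2 members rose in pifq against Col. The cause of these differences was not tested.

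The replicate numbers are shared labels with no stated pairing. Differences of replicate 1 from replicate 2 correlated across genes by 0.345 between f1f3 and Col, 0.444 between pifq and Col, and 0.215 between pifq and f1f3. With the replicate block, 5 members rose and 14 fell in f1f3 against Col beside 3618 and 3818 of all genes, and 9 rose and 3 fell in pifq against Col beside 1611 and 1304 of all genes. With that block 19 members rose and 1 fell in pifq against f1f3 beside 2971 and 2487 of all genes, and PSY in f1f3 against Col had a limma adjusted p of 0.0116.

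Each sign that turned was that of a member not called in the comparison concerned. In f1f3 against Col, CYP97A3 was at -0.0086 with edgeR and TMM factors, -0.021 with RLE factors and -0.021 with DESeq2, and DXR at 0.0014 with library totals. In pifq against f1f3, library totals gave -0.031 for MCT and -0.0046 for BCH1. Leaving out 1 library in f1f3 against Col gave CRTISO -0.37 to 0.049, VTE3 -0.15 to 0.27, CYP97A3 -0.33 to 0.35 and VTE2 -0.11 to 0.23. The same in pifq against Col gave CYP97C1 -0.094 to 0.23, NPQ1 -0.084 to 0.39, ZEP -0.064 to 0.40, OR -0.26 to 0.37 and VTE1 -0.57 to 0.16. Between pifq and f1f3 it gave MCT -0.0063 to 0.20 and GGPPS11 -0.14 to 0.57. The gene ratios kept their sign with a pseudocount of 5.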
